A study of Mus musculus with 4 samples.

Results

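The genes described here are Batf, its paralog Batf3, the JUN genes Jun, Junb and Jund, the interferon regulatory factor genes Irf4 and Irf8, and Fosl2, Bach1 and Bach2, whose products can occupy AP-1 sites or JUN partners in place of BATF. They were chosen by name, and all 10 were found among the 24312 genes of the deposited table. P14 cells, mouse CD8 T cells of the C57BL/6 background with a transgenic receptor for the viral peptide gp33, were stimulated with 100 ng/ml gp33 for 1 day and spin transduced with the retrovirus MSCV-IRES-GFP (MIG) or with MIG-BATF. After 1 more day of activation and 2 days in 10 ng/ml IL-2, CD8+ GFP+ cells were sorted and kept for 2 further days in 1 ng/ml IL-2 before poly(A) RNA sequencing. Each group had 2 libraries, called biological replicates by the submitters, with no mouse or culture named, so p-values measure only how far these libraries spread, which may be partly technical. Both groups carry the GFP vector, and the labels state neither the species nor the extent of the BATF insert.

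BATF is a basic leucine zipper (bZIP) protein with a DNA-binding region and a dimerisation zipper but no transactivation domain of its own. It binds DNA as a dimer with JUN proteins, and BATF-JUN dimers bind composite elements together with IRF4 or IRF8. In CD8 T cells BATF is induced by antigen and is needed for effector expansion and metabolism. The question here is how much Batf mRNA the vector added relative to the mRNA of the partners and competitors, and whether those genes differed between the groups.

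Library totals ran from 19004726 to 24795707 fragments. Of 13008 genes tested, 142 passed edgeR's quasi-likelihood test at an adjusted p of 0.05, which is 1.09% of all genes tested, 115 higher (0.884%) and 27 lower (0.208%) in BATF. In fits that left out 1 library, 248 to 589 genes passed, the highest number without MIG replicate 2. All 8 CD8 T cell markers passed the filter on low counts, with a summed level of 2517 to 2702 FPKM (fragments per kilobase of transcript, scaled to library size) in MIG and 2241 to 2390 FPKM in BATF. Of these 8 genes 0 passed in edgeR or DESeq2, while 3 were lower before adjustment at 0.05, and edgeR called Cd8a lower without BATF replicate 2 (−0.74 on the log2 scale, adjusted p = 0.0372). Cd4 had 11 to 15 fragments in a library. In bulk RNA, fewer cells expressing a gene and less of its mRNA per cell cannot be told apart.

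Batf was the only one of the 10 genes to pass the test, and all 10 passed the filter on low counts. It moved from a moderately abundant mRNA to one of the most abundant in the cell. Batf stood at 51.5 and 36.4 FPKM in MIG replicates 1 and 2 and at 1858 and 1314 FPKM in BATF replicates 1 and 2. By FPKM it ranked 1909 and 2493 among all genes of the MIG libraries, and 64 and 94 among those of the BATF libraries. The fitted difference was 36.3-fold, with a 95% interval of 24.6 to 53.5 (5.18 ± 0.24 SE as a log2 fold change, edgeR adjusted p = 0.00188). Here and below the interval is that of the single gene, not adjusted for the number of genes. Fragments of the vector's Batf and of the cells' own gene were counted together, so the share of each was not measured.

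**Figure D1:**
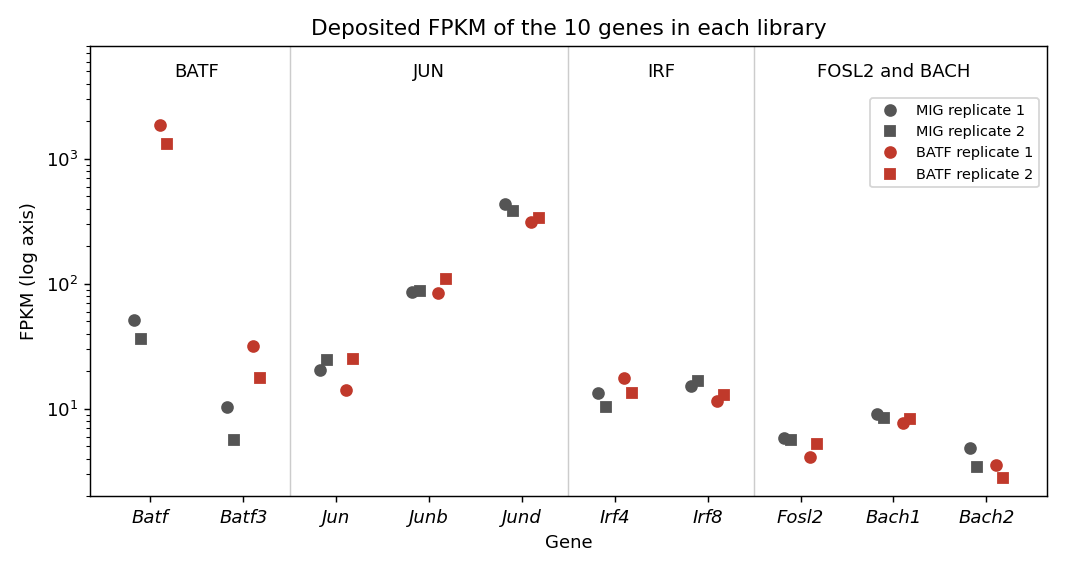
Deposited FPKM of each gene (log axis) in the 4 libraries, grouped by role; grey marks MIG and red BATF, circles replicate 1 and squares replicate 2. Batf rises from 51.5 and 36.4 to 1858 and 1314 FPKM, past Jund, the most abundant of the other genes, and Batf3 stands higher in both BATF libraries.

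Batf3 encodes a second BATF protein with the same kind of zipper, known for its role in the development of cross-presenting dendritic cells and in memory formation by CD8 T cells. It stood at 10.4 and 5.60 FPKM in MIG and at 31.9 and 17.6 FPKM in BATF, from 129 and 61 fragments against 317 and 198. Both BATF libraries lay above both MIG libraries, but the 2 libraries of a group also differed from each other, by 1.78-fold in MIG and 1.84-fold in BATF, on TMM-scaled CPM (counts scaled to library size with the trimmed mean of M values). The fitted difference was 3.10-fold, with an interval of 1.70 to 5.65, and missed the threshold over all genes (1.63 ± 0.36 SE as a log2 fold change, edgeR adjusted p = 0.123). Batf3 passed in DESeq2, in edgeR on unfiltered genes, and in each fit with 1 library left out, where a group's lone library is taken to vary as the other group does; its log2 fold change there was 2.12 or 1.28 with MIG replicate 1 or 2 left out, and 1.13 or 2.01 with BATF replicate 1 or 2 left out.

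Batf3 and Irf8 are also known from dendritic cells, and Irf8 and Bach2 from B cells. All 13 myeloid and dendritic cell markers were listed, and 6 passed the filter. The summed level of the 13 was 10.1 to 13.2 FPKM in MIG and 15.2 to 28.7 FPKM in BATF. No listed marker was at 0 in any library, and edgeR called 0 of the 6, with 3 higher at an unadjusted p under 0.05, while DESeq2 called Itgax. In edgeR Itgax also passed on unfiltered genes, with the authors' factors and, together with Xcr1, without MIG replicate 2, while H2-Ab1 passed without BATF replicate 2. H2-Ab1, an MHC class II gene, supplied 13.8 of the 28.7 FPKM summed in BATF replicate 1, and stood at 3.18 and 0.756 FPKM in MIG and 2.84 FPKM in BATF replicate 2. Itgam and Cd74 had log2 fold changes of −0.28 and −0.18, and Lyz2 had 6 and 7 fragments in MIG against 3 and 1 in BATF. Clec9a, a receptor of cross-presenting dendritic cells, had 5 to 8 fragments in MIG and 6 to 19 in BATF, and Xcr1, a chemokine receptor of the same cells, stood at 1.01 and 1.34 FPKM in MIG and 1.73 and 2.19 FPKM in BATF. The part of such cells in the level of Batf3 was not tested. Of 8 B cell markers only Cd79b passed the filter. The list summed to 14.1 to 18.2 FPKM in MIG and 11.9 to 13.0 FPKM in BATF. Most of this was Cd79b, at 17.3 and 13.4 FPKM in MIG and 12.1 and 11.1 FPKM in BATF. Cd79b was lower before adjustment at 0.05 and did not pass (edgeR adjusted p = 0.435). Ms4a1 had 2 or 3 fragments in a library, and Pax5 was at 0 in MIG replicate 1. Of 3 NK cell markers none passed the filter, with a sum of 0.134 to 0.175 FPKM in MIG and 0.208 to 0.285 FPKM in BATF, and Ncr1 was at 0 in MIG replicate 1. The 4 markers of CD4 and regulatory T cells summed to 6.00 to 9.28 FPKM in MIG and 10.9 to 14.5 FPKM in BATF, most of it Zbtb7b, which missed the threshold in edgeR (adjusted p = 0.0658) but passed in each fit with 1 library left out, on unfiltered genes, with the authors' factors (adjusted p = 0.0495) and in DESeq2.

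The promoters of the genes were read for AP-1 and IRF letters, since the products of several of them act at such sites. In the 250 bases before each gene's start (RefSeq starts, build GRCm38.p6; all 10 genes matched), TGANTCA, the AP-1 core, was found on either strand in 0 of 10 genes, where 7.82% of 27025 genes hold it. TGACGTCA, the cyclic AMP element to which JUN dimers also bind, was found in 0 of 10 against 1.77% of genes. Its variant TGACATCA was found only in Jun, against 3.41% of genes. This variant was searched as that of the Jun promoter, so its match in Jun was set by the choice of motif and is no finding. The IRF tandem (GAAA, any 2 bases, GAAA) was found only in Fosl2, against 3.46%. Composites of the AP-1 core, with GAAA directly before it or with TTTC and any 4 bases before it, were found in 0 of 10 against 0.118% and 0.115%. The 3 windows printed are those of Batf3, the gene with the largest difference after Batf, and of Jun and Fosl2, the windows with a match. Each reads 5′ to 3′ on the gene's strand and ends at the base before the gene's start, with a match in capitals and the rest in lower case: Batf3 at chr1:191098164-191098413 on the plus strand, Jun at chr4:95052223-95052472 on the minus strand with TGACATCA starting 45 bases before the gene's start, and Fosl2 at chr5:32136222-32136471 on the plus strand with the tandem on the opposite strand, starting 221 bases before it.
Batf3: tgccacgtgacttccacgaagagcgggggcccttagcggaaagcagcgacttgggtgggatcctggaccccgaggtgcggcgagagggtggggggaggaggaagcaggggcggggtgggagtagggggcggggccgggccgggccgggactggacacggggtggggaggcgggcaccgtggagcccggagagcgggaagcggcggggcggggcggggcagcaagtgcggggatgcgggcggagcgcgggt
Jun: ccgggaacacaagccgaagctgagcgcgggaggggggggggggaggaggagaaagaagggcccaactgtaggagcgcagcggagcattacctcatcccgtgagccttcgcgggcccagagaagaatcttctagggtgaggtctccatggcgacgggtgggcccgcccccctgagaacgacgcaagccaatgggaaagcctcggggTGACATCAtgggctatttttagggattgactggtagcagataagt
Fosl2: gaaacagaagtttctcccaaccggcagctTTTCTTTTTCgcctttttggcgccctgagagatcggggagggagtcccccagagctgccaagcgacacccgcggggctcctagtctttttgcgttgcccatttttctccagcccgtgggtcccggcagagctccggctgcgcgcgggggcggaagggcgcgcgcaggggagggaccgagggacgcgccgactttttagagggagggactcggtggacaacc
A match of letters is not a binding site, and binding was not measured in these libraries.

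The 3 JUN genes supply the dimerisation partners of BATF. Jund, a JUN protein with a role in restraining proliferation, was by far the most abundant of them, Junb, a partner of BATF in T cells, came next, and Jun, the founding member, was last in every library. Jund stood at 438 and 385 FPKM in MIG and at 314 and 334 FPKM in BATF. Both BATF libraries lay below both MIG libraries, and the fitted level in BATF was 0.791 times that in MIG (interval 0.688 to 0.909), which did not pass the adjusted threshold (−0.34 ± 0.08 SE as a log2 fold change, edgeR adjusted p = 0.162). Jund passed without MIG replicate 2 (−0.41 as a log2 fold change, edgeR adjusted p = 0.00670) and in DESeq2 (adjusted p = 0.0423). Without MIG replicate 1 its log2 fold change was −0.27.

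Junb stood at 85.7 and 87.9 FPKM in MIG and at 84.5 and 108 FPKM in BATF, so that 1 BATF library lay below the MIG libraries and 1 above. Its fitted ratio was 1.11 (interval 0.913 to 1.36; edgeR adjusted p = 0.796). Jun stood at 20.6 and 24.8 FPKM in MIG and at 14.1 and 24.9 FPKM in BATF. Its BATF libraries differed from each other more than the groups did, and the fitted ratio was 0.859 (interval 0.573 to 1.29; edgeR adjusted p = 0.895). The direction of Jun turned without BATF replicate 1, to a log2 fold change of 0.13, and that of Junb without BATF replicate 2, to −0.022. In the GENCODE M21 annotation, of build GRCm38, exons of Junb overlap Prdx2 on the opposite strand, which had 1922 to 2540 fragments against 2704 to 3911 for Junb; exons of Jun and Jund overlap the antisense genes Junos and Gm11175. The library kit named in the labels is not stated to mark strand, and without strand such fragments cannot be told apart.

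The JUN mRNAs summed to 544 and 498 FPKM in MIG and to 413 and 467 FPKM in BATF. Jund made up 80.5% and 77.4% of this sum in MIG and 76.1% and 71.5% in BATF. Junb made up 15.7% and 17.7% in MIG and 20.5% and 23.2% in BATF, and Jun between 3.41% and 5.32% in the 4 libraries. The share of Junb was higher and that of Jund lower in both BATF libraries than in both MIG libraries. The shares were not tested.

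**Figure D2:**
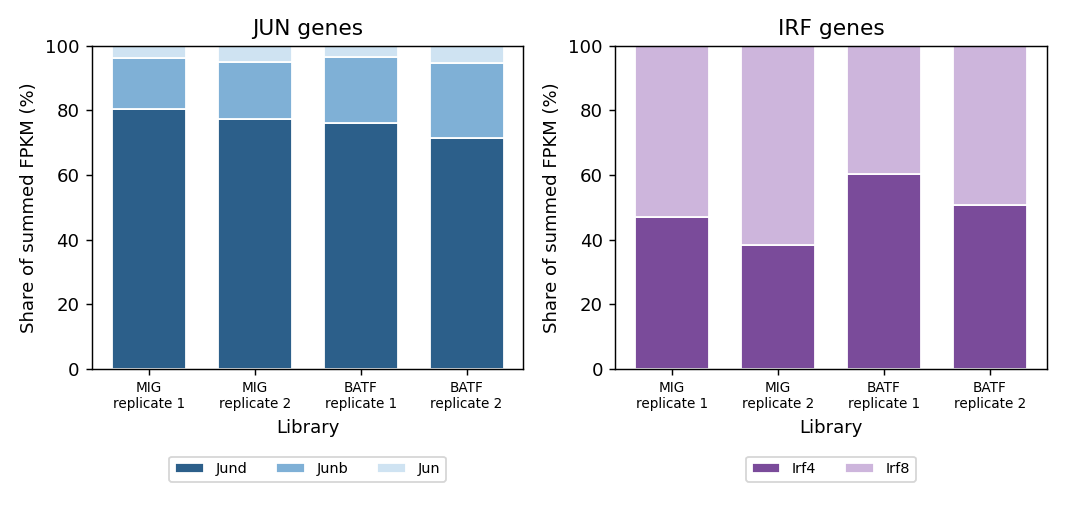
Share of the summed FPKM (percent) of the JUN genes (left) and the IRF genes (right) taken by each gene in each of the 4 libraries. Jund takes 71.5% to 80.5% of the JUN sum; Irf4 takes 46.9% and 38.5% of the IRF sum in MIG and 60.2% and 50.8% in BATF.

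Batf mRNA was outnumbered by JUN mRNA in MIG and exceeded it in BATF on the FPKM scale. The ratio of Batf FPKM to the summed FPKM of Jun, Junb and Jund was 0.0947 and 0.0732 in the MIG libraries, or 10.6 and 13.7 JUN transcripts for each Batf transcript on the FPKM scale. In the BATF libraries the ratio was 4.50 and 2.81. Against Jund alone it went from 0.118 and 0.0946 to 5.92 and 3.93, and against Junb alone from 0.601 and 0.414 to 22.0 and 12.1. The lowest BATF ratio to the JUN sum was 29.7 times the highest MIG ratio. Ratios within a library need no scaling between libraries, but they rest on the length by which FPKM divides. For Jun, Junb and Jund this was 4.25, 2.33 and 3.81 times that for Batf. The GENCODE transcripts with the longest coding part have 3189, 1809 and 1668 bases for these genes and 955 for Batf. FPKM thus used a longer length for Jund than for Junb, against the order of these transcripts. The reason was not tested, and the ratio to the JUN sum rests mostly on Jund. The length of the vector's Batf transcript covered by these fragments is not stated, and the FPKM uses that of the annotated gene. When fragments were divided by coding length instead, a choice added after seeing the data, the mean ratio to the JUN sum was 0.0638 in MIG and 2.84 in BATF. As fragments with no division by length the ratio was 1.28 in BATF replicate 1 and 0.805 in BATF replicate 2, so that the second lay below 1.

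**Figure D3:**
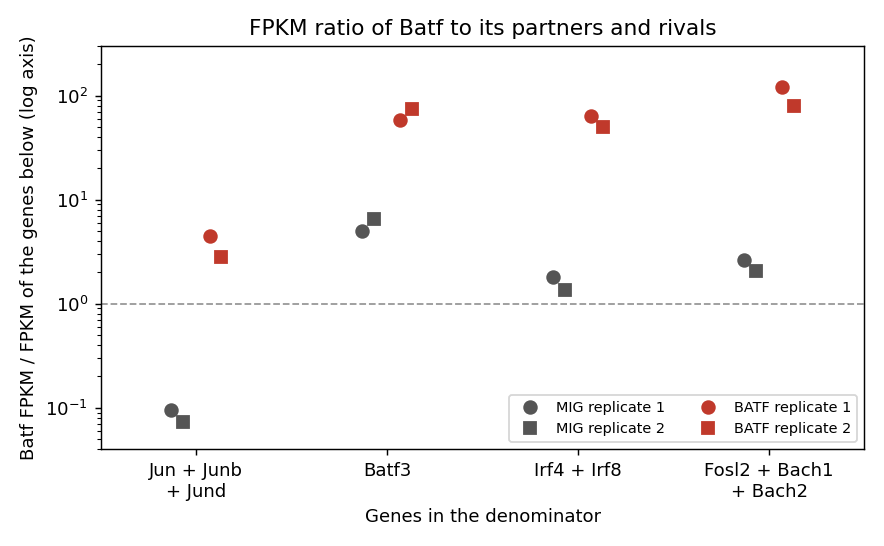
Ratio of Batf FPKM to the FPKM of the genes named on the horizontal axis (log vertical axis) in each library; grey marks MIG and red BATF, circles replicate 1 and squares replicate 2, and the dashed line marks equal levels. The ratio to the JUN genes crosses the line, from 0.0947 and 0.0732 to 4.50 and 2.81, while the other ratios lie above it in all 4 libraries.

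IRF4 and IRF8 are the IRF proteins that join BATF-JUN dimers on composite elements. IRF4 is induced in proportion to T cell receptor signal and sustains effector CD8 T cells, and IRF8 is known from dendritic cells, B cells and activated CD8 T cells. Irf4 stood at 13.5 and 10.4 FPKM in MIG and at 17.5 and 13.4 FPKM in BATF. The groups overlapped on the deposited FPKM, and on TMM-scaled CPM they were parted only by the distance from 60.5 in MIG replicate 1 to 60.7 in BATF replicate 2. The fitted ratio was 1.30, with an interval of 0.989 to 1.71, and did not pass (edgeR adjusted p = 0.494); its log2 fold change of 0.38 became 0.22 when MIG replicate 2 was left out, or 0.16 when BATF replicate 1 was.

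Irf8 stood at 15.3 and 16.6 FPKM in MIG and at 11.6 and 12.9 FPKM in BATF. Both BATF libraries lay below both MIG libraries, and the fitted ratio was 0.772, with an interval of 0.640 to 0.932, which did not pass over all genes (−0.37 ± 0.11 SE as a log2 fold change, edgeR adjusted p = 0.250). The sum of Irf4 and Irf8 was 28.8 and 27.0 FPKM in MIG and 29.1 and 26.3 FPKM in BATF, with overlapping groups. The FPKM ratio of Irf4 to Irf8 was 0.884 and 0.625 in MIG and 1.51 and 1.03 in BATF, higher in both BATF libraries, and this difference was not tested. Which of the genes was the more abundant in MIG depended on the length used: per coding length the ratio was 1.41 and 0.997 in MIG and 2.41 and 1.65 in BATF, again higher in both BATF libraries.

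Batf was within a few-fold of its IRF partners in MIG and far above them in BATF. The ratio of Batf FPKM to the sum of Irf4 and Irf8 was 1.79 and 1.35 in MIG and 63.8 and 50.0 in BATF. Whether Batf stood above the IRF sum in MIG depended on length, since the ratio was 1.26 and 0.987 there per coding length, and 0.358 and 0.282 as fragments with no division by length. In BATF it was 42.2 and 34.5, and 11.9 and 9.79, by these measures. Against Irf4 alone it was 3.81 and 3.51 in MIG and 106 and 98.3 in BATF. In each group the library with more Batf also had more Irf4, Batf3 and Bach2. Batf was 1.36-fold higher in MIG replicate 1 than in MIG replicate 2 and 1.44-fold higher in BATF replicate 1 than in BATF replicate 2 on TMM-scaled CPM, and for Irf4 these values were 1.25 and 1.33. For Batf3 they were 1.78 and 1.84, and for Bach2 1.36 and 1.30. For Jun they were 0.798 and 0.575, so that the library with more Batf had less Jun in each group. The same held for Irf8 (0.885 and 0.910), Junb (0.939 and 0.793) and Fosl2 (0.996 and 0.788). Jund (1.09 and 0.956) and Bach1 (1.03 and 0.932) went opposite ways in the 2 groups. These are descriptions of 2 libraries per group, and a relation to the level of Batf was not tested. Over 13008 genes the deviations of same-numbered libraries also correlated, at 0.18.

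FOSL2, a FOS-family protein, pairs with JUN and can take AP-1 sites that BATF also uses in T cells. BACH1 and BACH2 are bZIP repressors that pair with small MAF proteins, BACH1 being regulated by heme and BACH2 keeping T cells from effector differentiation in part by holding AP-1 sites. Fosl2 stood at 5.82 and 5.63 FPKM in MIG and at 4.09 and 5.27 FPKM in BATF, lower in both BATF libraries, with a fitted ratio of 0.820 (interval 0.652 to 1.03; edgeR adjusted p = 0.565). Bach1 stood at 9.04 and 8.45 FPKM in MIG and at 7.67 and 8.37 FPKM in BATF, with a fitted ratio of 0.920 (interval 0.789 to 1.07; edgeR adjusted p = 0.797). Both BATF libraries lay below both MIG libraries for each of these genes, by margins smaller than the spread within BATF.

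Bach2 stood at 4.85 and 3.43 FPKM in MIG and at 3.58 and 2.80 FPKM in BATF, and the groups overlapped. Its fitted ratio was 0.774 (interval 0.566 to 1.06; edgeR adjusted p = 0.594). Without MIG replicate 2 it passed (−0.58 as a log2 fold change, edgeR adjusted p = 0.0361), and without MIG replicate 1 its log2 fold change was −0.12. Bach2os, an antisense gene that overlaps exons of Bach2, had 16 to 36 fragments against 511 to 983 for Bach2.

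The summed FPKM of Fosl2, Bach1 and Bach2 was 19.7 and 17.5 in MIG and 15.3 and 16.4 in BATF. The FPKM ratio of Batf to this sum was 2.61 and 2.08 in MIG and 121 and 80.0 in BATF. It was 1.33 and 1.04 in MIG per coding length, and 0.291 and 0.236, below 1, as fragments with no division by length, beside 63.2 and 40.3, and 13.5 and 9.19, in BATF. Of the summed FPKM of Batf, Batf3, Fosl2, Bach1 and Bach2, Batf made up 63.2% and 61.2% in MIG and 97.5% in each BATF library. Batf3 made up 12.7% and 9.41% in MIG and 1.67% and 1.31% in BATF, so that its share was lower in BATF although its own level was higher in both libraries. As fragments with no division by length, Batf made up 21.8% and 18.7% of this sum in MIG and 92.1% and 89.4% in BATF. The ratio of Batf to Batf3 was 4.98 and 6.50 in MIG and 58.3 and 74.5 in BATF.

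Counted together, 1 of the 10 genes passed, the overexpressed one, against 1.09% of all genes tested. Of the other 9 genes 0 passed in edgeR, while 1 was higher (Batf3) and 2 lower (Jund and Irf8) without adjustment at 0.05, where 10.8% of all genes passed by that rule (6.69% higher, 4.09% lower). DESeq2 called Batf, Batf3 and Jund, against 2.8% of all genes, and edgeR on unfiltered genes called Batf and Batf3, against 1.53%. With other library scalings Batf alone passed, against 1.12% (DESeq2 size factors), 1.18% (upper quartile) and 1.37% (the authors' factors) of genes; so it did in limma, against 0.338% on log2(FPKM + 1) and 0.623% on log2(FPKM + 0.1). With 1 library left out, 2 of the 10 passed without MIG replicate 1 (1.79% of genes), BATF replicate 1 (2%) or BATF replicate 2 (1.79%), and 4 without MIG replicate 2 (4.27%). The 9 genes had a median log2 fold change of −0.22, beside −0.0056 over all genes tested. On TMM-scaled CPM the groups did not overlap in 7 of the 10 genes, 3 higher and 4 lower in BATF, where 38.7% of all genes tested did not overlap (19.2% higher, 19.4% lower).

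**Figure D4:**
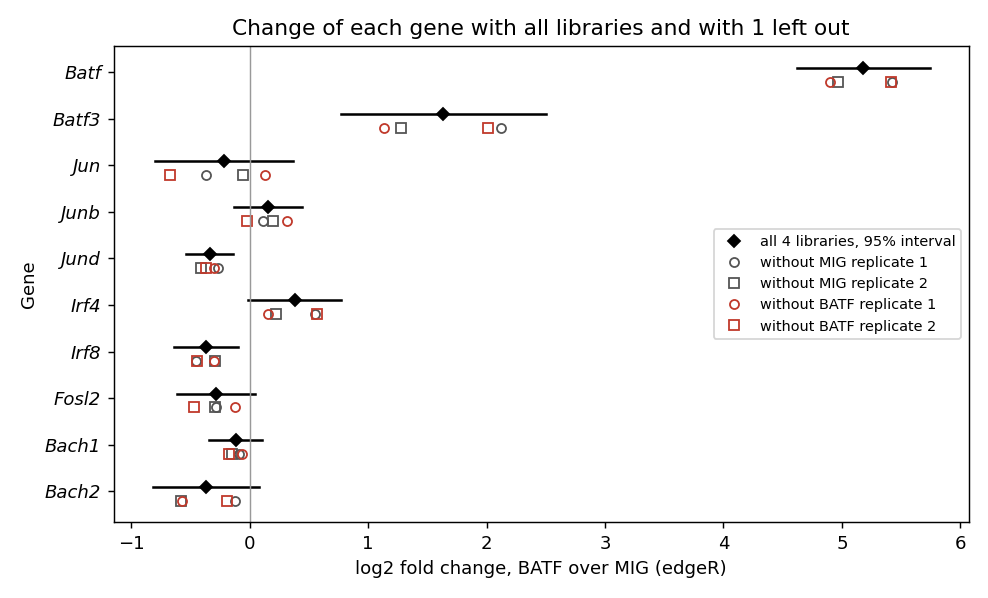
Log2 fold change of BATF over MIG for each gene from edgeR, with all 4 libraries (diamond, line for the 95% interval of the single gene) and with 1 library left out (open symbols). Batf lies at 5.18 and Batf3 at 1.63, and the other 8 genes lie between −0.37 and 0.38 with all libraries; the symbols of Jun and Junb fall on both sides of 0.

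The mRNAs of other bZIP and IRF genes were also read, and neither their proteins nor dimers were measured. Of 17 other JUN-, FOS- and ATF-related genes, 15 were tested and none passed in edgeR, while before adjustment 2 were higher and 1 lower at 0.05, and DESeq2 also called 0. They ran from a log2 fold change of −0.66 for Jdp2, a JUN-binding repressor at 3.34 and 3.03 FPKM in MIG and 1.85 and 2.08 FPKM in BATF, to 1.06 for Atf3, a stress-induced repressor at 0.576 and 0.580 FPKM in MIG and 1.44 and 0.972 FPKM in BATF. Fos, the classical JUN partner, was low, at 0.692 and 1.96 FPKM in MIG and 1.35 and 2.38 FPKM in BATF. Batf2, the third BATF gene, had 1 fragment in each library, and Fosl1 had 3 to 8.

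Of 11 MAF- and NRF-related genes, 6 were tested. In edgeR only Maf passed, higher in BATF, beside 0.884% higher over all genes tested, and none was called lower. Before adjustment 2 were higher and 1 lower at 0.05, and DESeq2 also called only Maf. Maf, a large MAF factor of helper and regulatory T cell programmes, stood at 3.75 and 5.88 FPKM in MIG and at 17.0 and 29.4 FPKM in BATF (2.27 ± 0.30 SE as a log2 fold change, edgeR adjusted p = 0.0263). Maf also passed in every fit with 1 library left out but not in limma on log2(FPKM + 1) (adjusted p = 0.0696). Mafg and Mafk, small MAF partners of the BACH proteins, had log2 fold changes of 0.45 and −0.12 and did not pass. Nfe2l2, the NRF2 factor that competes with BACH1, stood at 22.6 and 21.6 FPKM in MIG and 16.9 and 18.4 FPKM in BATF, a difference that did not pass (edgeR adjusted p = 0.232).

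Of 7 other IRF genes tested, 0 passed in edgeR, while 1 was higher and 2 lower before adjustment at 0.05. DESeq2 called Irf5, and so did edgeR on unfiltered genes (adjusted p = 0.0294). The 7 genes ran from −0.48 for Irf7, an interferon-induced factor, to 0.95 for Irf5, an IRF of Toll-like receptor signalling. Irf5 stood at 3.18 and 2.31 FPKM in MIG and 5.73 and 4.82 FPKM in BATF. Without MIG replicate 2 edgeR called Irf1 and Irf9 lower, and without BATF replicate 2 it called Irf5 higher. Of 10 C/EBP and further bZIP genes tested edgeR called 0, with 2 higher at an unadjusted p under 0.05, and DESeq2 called Nfil3. In edgeR Nfil3 also passed on unfiltered genes (adjusted p = 0.00150) and with the authors' factors (adjusted p = 0.0317). Nfil3, a bZIP repressor induced by cytokines, stood at 23.7 and 27.9 FPKM in MIG and 41.9 and 56.5 FPKM in BATF (0.94 as a log2 fold change, edgeR adjusted p = 0.0554), and edgeR called it without MIG replicate 2, BATF replicate 1 or BATF replicate 2. The lowest of these 10 was Tef, at −0.09, and the highest Hlf, at 0.99. PU.1, encoded by Spi1, and SPIB are the ETS partners of IRF4 and IRF8 in B and myeloid cells, and their genes had 0 to 4 and 4 to 14 fragments. Of 6 other ETS, NFAT and Ikaros genes tested 0 passed in edgeR, while 1 was higher and 1 lower before adjustment at 0.05, and DESeq2 called 0; they ran from −0.34 for Ikzf3 to 0.24 for Nfatc2.

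Of 16 genes taken as reported targets of BATF and IRF4, 14 were tested. In edgeR 6 were called higher and 0 lower, beside 0.884% higher over all genes tested. The list was made with results of these libraries known, so it is no independent evidence of a direction. The 6 were Havcr2 (log2 fold change 2.80), Maf (2.27), Icos (1.38), Prdm1 (1.35), Lag3 (1.16) and Il2ra (1.11). Before adjustment 8 were higher and 1 lower at 0.05, and DESeq2 called 8, adding Ctla4 and Gzmb. In limma on log2(FPKM + 1), Prdm1 (adjusted p = 0.0899), Havcr2 (0.0623) and Maf (0.0696) did not pass, and Prdm1 did not on log2(FPKM + 0.1) either (0.0627). Ctla4, an inhibitory receptor with a composite element in its locus, stood at 35.0 and 24.0 FPKM in MIG and at 57.7 and 52.6 FPKM in BATF, and missed the threshold (edgeR adjusted p = 0.0622), but passed in every fit with 1 library left out, on unfiltered genes, with the authors' factors (adjusted p = 0.0480) and in DESeq2. Il17a, at 1 fragment in MIG replicate 1 and 0 in the other libraries, and Il23r, at 4 to 10 fragments, did not pass the filter on low counts.

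The tested genes whose profile over the 4 libraries was most like those of Batf, Batf3 and Irf4 were named by the root mean square difference of log2(CPM + 0.5), each gene centred on its own mean. For Batf these were Tnfrsf8 (0.359), Msc (0.976), Ccr1 (1.03), Gucy2e (1.10) and Ermn (1.18). All lay farther from Batf than the genes named below lay from Batf3 or Irf4. In MIG, Msc (0.409 and 0.485 CPM) and Ccr1 (0.449 and 0.777 CPM) were near the 0.5 added before the log. Ermn stood at 28.9 and 6.30 CPM in BATF replicates 1 and 2. For Batf3 they were Trib1 (0.0957), Arap3 (0.0987), Spock2 (0.132), Plekhf1 (0.150) and Eps8 (0.152). Trib1, a pseudokinase, stood at 5.60 and 3.74 CPM in MIG and at 18.6 and 9.37 CPM in BATF and, like Batf3, did not pass (edgeR adjusted p = 0.125). For Irf4 they were Clec3b (0.0216), Tlr4 (0.0249), Tob1 (0.0288), Xkr8 (0.0299) and Heatr9 (0.0302), with edgeR adjusted p-values of 0.593 to 0.822, and Clec3b and Tlr4 were below 1.4 CPM in every library.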

How the data were processed

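Poly(A) RNA was sequenced from 2 MIG and 2 BATF libraries. The submitters' processing notes list TopHat2 2.1.1, Cufflinks 2.2.2, Cuffdiff and mm9; no source used here names the annotation or strand setting. The deposited table holds estimated counts (fragments assigned to each gene before scaling), a scaled fragment signal (the count times 1 factor per library, 0.889 to 1.11) and FPKM, all made by the authors' Cuffdiff run, per the file headers. The table numbers replicates 0 and 1 and the titles 1 and 2; 0 was read as 1, which no source states, so numbers only name libraries within a group.

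Estimated counts were rounded to whole numbers for edgeR 4.0.16 in R 4.3.3 (filterByExpr, TMM factors of 0.988 to 1.01, glmQLFit and glmQLFTest, no covariate), with Benjamini-Hochberg adjustment over the 13008 genes tested; the biological coefficient of variation was 11.3%. DESeq2 1.42.0 and limma 3.58.1 on log2 FPKM served as alternatives. The edgeR script was tested on simulated data. SEs were taken as the unshrunk coefficient over the root of F. Levels of different genes were compared on FPKM, and ratios were taken within each library. The 10 genes were named whatever their values, and of the other lists the called genes and the extremes were named, except for items not reported here. The genes, the lists and the rule for named genes were chosen with earlier results of these data known.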

Additional observations from a re-analysis of the deposited data

How the results depend on the processing

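Over the 13 alternatives to the main test for each of the 10 genes, 113 of 130 values kept their direction and their side of the threshold, 15 kept their direction and newly passed, and 2 turned; 0 lost a call. Only Batf, the 1 gene called in the main test, had a call to lose, and it passed in all 13. Other library scalings (DESeq2 size factors, upper quartile, the authors' factors) changed no call among the 10 genes. DESeq2 called 364 genes overall (265 higher, 99 lower) and 3 of the 10, adding Batf3 (log2 fold change 1.64) and Jund (−0.34). With no filter on low counts edgeR called 349 genes and 2 of the 10, adding Batf3 (1.63). Limma called 44 genes on log2(FPKM + 1) and 81 on log2(FPKM + 0.1), beside 142 in edgeR. With 1 library left out, edgeR called 248 to 589 genes and 2 to 4 of the 10. The range of log2 fold changes was then 4.90 to 5.43 for Batf, 1.13 to 2.12 for Batf3, −0.67 to 0.13 for Jun, −0.022 to 0.31 for Junb, −0.41 to −0.27 for Jund, 0.16 to 0.57 for Irf4, −0.45 to −0.29 for Irf8, −0.47 to −0.12 for Fosl2, −0.17 to −0.069 for Bach1 and −0.58 to −0.12 for Bach2. Jun turned to 0.13 without BATF replicate 1 and Junb to −0.022 without BATF replicate 2. The cause was not tested.

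No label says that equal replicate numbers share a mouse or a day. The deviations of same-numbered libraries correlated at 0.18 over 13008 genes. With the replicate number as a block, which leaves 1 residual degree of freedom, edgeR called 1504 genes (11.6%) and 7 of the 10, adding to Batf the genes Batf3 (1.64), Irf4 (0.38), Irf8 (−0.37), Jun (−0.26), Jund (−0.34) and Bach2 (−0.36). Among the markers this fit called Itgax, Xcr1, H2-Ab1 and Zbtb7b higher and Cd8a, Cd8b1 and Cd79b lower. Of the other bZIP and IRF genes it called Atf3, Atf4, Maf, Mafg, Irf5 and Nfil3 higher and Jdp2, Nfe2l2, Irf1, Irf7 and Irf9 lower. Nfatc2 was called higher and Ikzf3 lower. Of the reported targets it called those that DESeq2 called and Tbx21, all higher.

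The ratios depend on length, as constructed. As fragments with no division by length, the mean ratio of Batf to the JUN sum was 0.0234 in MIG and 1.04 in BATF, to the IRF sum 0.320 and 10.9, to the sum of Fosl2, Bach1 and Bach2 0.264 and 11.4, and to Batf3 7.90 and 91.5. Per GENCODE coding length (added after seeing the data) these were 0.0638 and 2.84, 1.12 and 38.4, 1.18 and 51.7, and 7.46 and 86.4, beside FPKM means of 0.0839 and 3.66, 1.57 and 56.9, 2.35 and 100.5, and 5.74 and 66.4. With 1 library left out, the FPKM mean of its group is the ratio of the other library, so this is no further check. The values ran from 0.0732 to 0.0947 in MIG and 2.81 to 4.50 in BATF for JUN. For IRF they were 1.35 to 1.79 and 50.0 to 63.8. For Fosl2, Bach1 and Bach2 they were 2.08 to 2.61 and 80.0 to 121, and for Batf3 4.98 to 6.50 and 58.3 to 74.5. Lengths from RefSeq proteins were planned and not run. Batf3 rests on 61 to 317 fragments a library, the fewest of the 10 genes.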
